A study of Rattus norvegicus with 54 samples.

Results

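The 8 genes described here encode parts of the machinery with which cells display peptides to T cells on molecules of the major histocompatibility complex (MHC), which in the rat is called RT1. They were chosen by name from the gene expression table of the rat heart, with earlier results of these data known. All 8 were among the 10257 genes of the table: Cd74, RT1-Da, RT1-Db1, RT1-Ba, RT1-Bb, B2m, Tap1, and Tap2. The rule also asked for their values with and without the libraries of 2 rats, WRF51 and WRF62.

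Class II molecules present peptides from material taken up by professional antigen-presenting cells such as macrophages, dendritic cells, and B cells, and each is a pair of an alpha and a beta chain. The invariant chain, Cd74, escorts the new pair through the cell and keeps its groove closed until peptides are loaded. Class I molecules are found on nearly all nucleated cells, where a heavy chain pairs with the light chain B2m and receives peptides that the transporter made of Tap1 and Tap2 carries into the endoplasmic reticulum.

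RNA-Seq was performed on hearts of 54 male wildtype Wistar rats, an outbred strain, that were 7 to 8 weeks old when the protocol began. The 18 C rats were undisturbed controls, the 18 W rats spent ZT2 to ZT10 of each workday in slowly rotating wheels for 5 weeks with food at hand, and the 18 WRF rats did the same work without food in those hours. ZT is the time in hours after lights-on of a 12 h light and 12 h dark cycle that all groups shared, and 3 rats per group were euthanized at each of ZT1, 5, 9, 13, 17, and 21 on a day without work. Per the study's methods hearts included the atria, but the summed level of 4 atrial markers ran from 48.3 to 55788 fpkm among C rats, so the share of atrium in the libraries was uneven. In such tissue, fewer cells of a type and less RNA per cell cannot be told apart.

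Values are fpkm, fragments scaled to the length of the transcript and to the mapped fragments of the library, which hold no counts, and sequencing depth was not used here. Of the genes that define heart muscle, Ckm, the muscle creatine kinase, was at 981 to 2530 fpkm in C rats and Myh6, the alpha myosin heavy chain, at 2077 to 3614. WRF51 (ZT9) held 31.5 fpkm of Ckm and 1419 of Ager, a lung epithelial gene that reached 4.79 in C rats. WRF62 (ZT5) held 170 fpkm of Ckm and 106 of Cd3e, which T cells need for receptor signalling and which reached 2.91 in C rats. The atrial markers of WRF62 were not low, with 3863 fpkm of Myl7, an atrial myosin light chain, and an atrial sum that ranked 10 of 54. Both libraries thus stood apart from the other hearts in their heart muscle genes, and the main results are therefore given with and without them. W21 (ZT17) held 1027 fpkm of Alb, the albumin gene of the liver, which reached 106 in C rats, and was within the range of the other rats for 7 of the 8 genes and was the lowest of all rats for RT1-Db1.

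In all, 6 of the 8 genes lie together on chromosome 20 in the RefSeq annotation of the rat genome (build GRCr8), where RT1-Da, RT1-Db1, RT1-Ba, RT1-Bb, Tap2, and Tap1 are near neighbours, while B2m is on chromosome 3 and Cd74 on chromosome 18. The 250 bases before the annotated start are shown for the invariant chain, an alpha chain of each class II locus, and the beta chain whose level split the rats. Of class I, B2m and Tap2 are shown, which hold an interferon-type motif, as does Tap1, which is not shown. The sequences come from RefSeq in build GRCr8, whereas the reads were aligned to rn6, and are written 5′ to 3′ on the strand of the gene. Capitals mark matches to the motifs named after the sequences. The stretches are chr18:56526956-56527205 (+ strand), chr20:4515165-4515414 (+), chr20:4576807-4577056 (+), chr20:4604119-4604368 (-), chr3:129549080-129549329 (+), and chr20:4652297-4652546 (-).
Cd74: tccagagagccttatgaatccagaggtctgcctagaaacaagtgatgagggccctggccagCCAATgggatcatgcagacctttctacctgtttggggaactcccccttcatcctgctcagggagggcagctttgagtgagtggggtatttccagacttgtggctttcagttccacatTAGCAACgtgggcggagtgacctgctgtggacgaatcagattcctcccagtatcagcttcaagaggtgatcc
RT1-Da: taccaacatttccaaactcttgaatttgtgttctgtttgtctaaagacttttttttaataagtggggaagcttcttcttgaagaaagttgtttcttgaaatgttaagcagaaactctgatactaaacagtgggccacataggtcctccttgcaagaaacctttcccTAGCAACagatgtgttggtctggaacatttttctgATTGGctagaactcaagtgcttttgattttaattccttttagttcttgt
RT1-Ba: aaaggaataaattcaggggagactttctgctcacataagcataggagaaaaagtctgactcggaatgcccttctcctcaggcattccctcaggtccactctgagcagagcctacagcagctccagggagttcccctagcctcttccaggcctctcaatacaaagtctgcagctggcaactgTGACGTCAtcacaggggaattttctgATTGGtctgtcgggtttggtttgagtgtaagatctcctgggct
RT1-Bb: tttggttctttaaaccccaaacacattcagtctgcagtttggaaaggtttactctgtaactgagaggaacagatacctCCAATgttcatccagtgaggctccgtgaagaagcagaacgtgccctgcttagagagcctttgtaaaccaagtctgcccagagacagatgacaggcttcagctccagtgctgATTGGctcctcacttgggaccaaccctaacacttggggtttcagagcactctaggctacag
B2m: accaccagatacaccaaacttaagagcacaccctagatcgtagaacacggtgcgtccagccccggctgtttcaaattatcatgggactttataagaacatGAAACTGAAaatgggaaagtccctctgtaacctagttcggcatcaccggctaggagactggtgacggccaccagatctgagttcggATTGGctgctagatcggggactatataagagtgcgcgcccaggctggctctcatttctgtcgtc
Tap2: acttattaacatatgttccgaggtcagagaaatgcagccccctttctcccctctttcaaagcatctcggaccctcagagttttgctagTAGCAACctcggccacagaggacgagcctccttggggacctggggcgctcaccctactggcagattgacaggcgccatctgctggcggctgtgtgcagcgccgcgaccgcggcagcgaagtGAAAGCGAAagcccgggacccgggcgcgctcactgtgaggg

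Motifs were searched on both strands in the 250 bases of 33469 rat promoters, and the motifs were picked after these promoters had been seen. CCAAT, the letters of the Y box of class II promoters, was found before 6 of the 8 genes (all but Tap1 and Tap2) and in 34% of all promoters. TAGCAAC, the core of the class II X box, was found before Cd74, RT1-Da, RT1-Db1, and Tap2, and in 2.88% of all promoters. In RT1-Da it lay 78 to 84 bases before the start, with CCAAT on the opposite strand 45 to 49 bases before it. RT1-Ba held no TAGCAAC but TGACGTCA, a cyclic AMP response element present in 1.59% of promoters. GAAANNGAA, a core of interferon-stimulated elements, was found before B2m, Tap1, and Tap2, and in 8.12% of promoters, and GGGGATTCC, a kappa B motif present in 0.242%, before none of the 8. These are matches of letters, not sites shown to be bound.

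The 8 genes differed widely in level. Per length, B2m was highest, with a median of 473 fpkm over the 54 rats, followed by Cd74 at 289, RT1-Da at 35.8, RT1-Db1 at 15.0, RT1-Ba at 12.3, Tap1 at 6.53, Tap2 at 4.24, and RT1-Bb at 0.870. The light chain and the invariant chain were thus above 98.2% and 97.3% of the genes of the table, whereas RT1-Bb was above 1.29%. Between neighbours in this order, the ranges over the 52 rats other than WRF51 and WRF62 overlapped for all but Cd74 and RT1-Da. Within each of these rats, RT1-Db1 was nevertheless below RT1-Da (0.265 to 0.631 times) and Tap2 below Tap1 (0.421 to 0.932 times).

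WRF51 and WRF62 stood apart in nearly all of the 8 genes. Cd74 was at 2108 fpkm in WRF51 and 1642 in WRF62, against 454 in the highest of the other rats, which was a C rat. RT1-Da, the alpha chain of the D locus, was at 811 and 477 fpkm, against 70.4 in the highest other rat. B2m was at 1875 and 1024 fpkm, against 676. For 7 of the 8 genes these were the 2 highest libraries of all, by 1.51 to 11.5 times the highest other rat. The exception was RT1-Bb, at 206 fpkm in WRF51 and only 3.59 in WRF62.

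The same libraries were also the highest in markers of macrophages, T cells, and leukocytes. The summed level of the 10 macrophage markers, all of which were in the table, was 92.6 to 413 fpkm in C rats, 80.5 to 296 in W rats, and 133 to 509 in the other WRF rats, but 18821 in WRF51 and 1188 in WRF62. The 6 T cell markers in the table, of 7 on the list, summed to 10.5 to 31.0 fpkm in C rats, 9.67 to 32.9 in W rats, and 15.4 to 40.4 in the other WRF rats, but to 133 in WRF51 and 598 in WRF62. The 5 general leukocyte markers summed to 25.3 to 79.7 fpkm in C rats, 24.5 to 65.3 in W rats, and 29.2 to 69.8 in the other WRF rats, but to 715 in WRF51 and 1353 in WRF62. None of these markers was at 0 in any rat, and the summed level of the 7 cardiomyocyte markers was lowest in these 2 libraries. The alpha chains of class II were also high relative to the invariant chain in them. RT1-Da was 0.122 times Cd74 in the median of the other 52 rats and at most 0.241 times, but 0.385 times in WRF51 and 0.291 times in WRF62. RT1-Ba was at most 0.0889 times Cd74 in the other rats, but 0.116 and 0.0949 times in these. Of 5 B cell markers only 1 was in the table, with 12.9 fpkm in WRF51 and 155 in WRF62 against at most 1.82 in C rats, and of 6 dendritic cell markers 2 were, with a sum of 6.36 fpkm in WRF51 and 3.70 in WRF62 against at most 4.98 in C rats. The part of these markers in the group differences of the 8 genes was not tested.

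**Figure D1:**
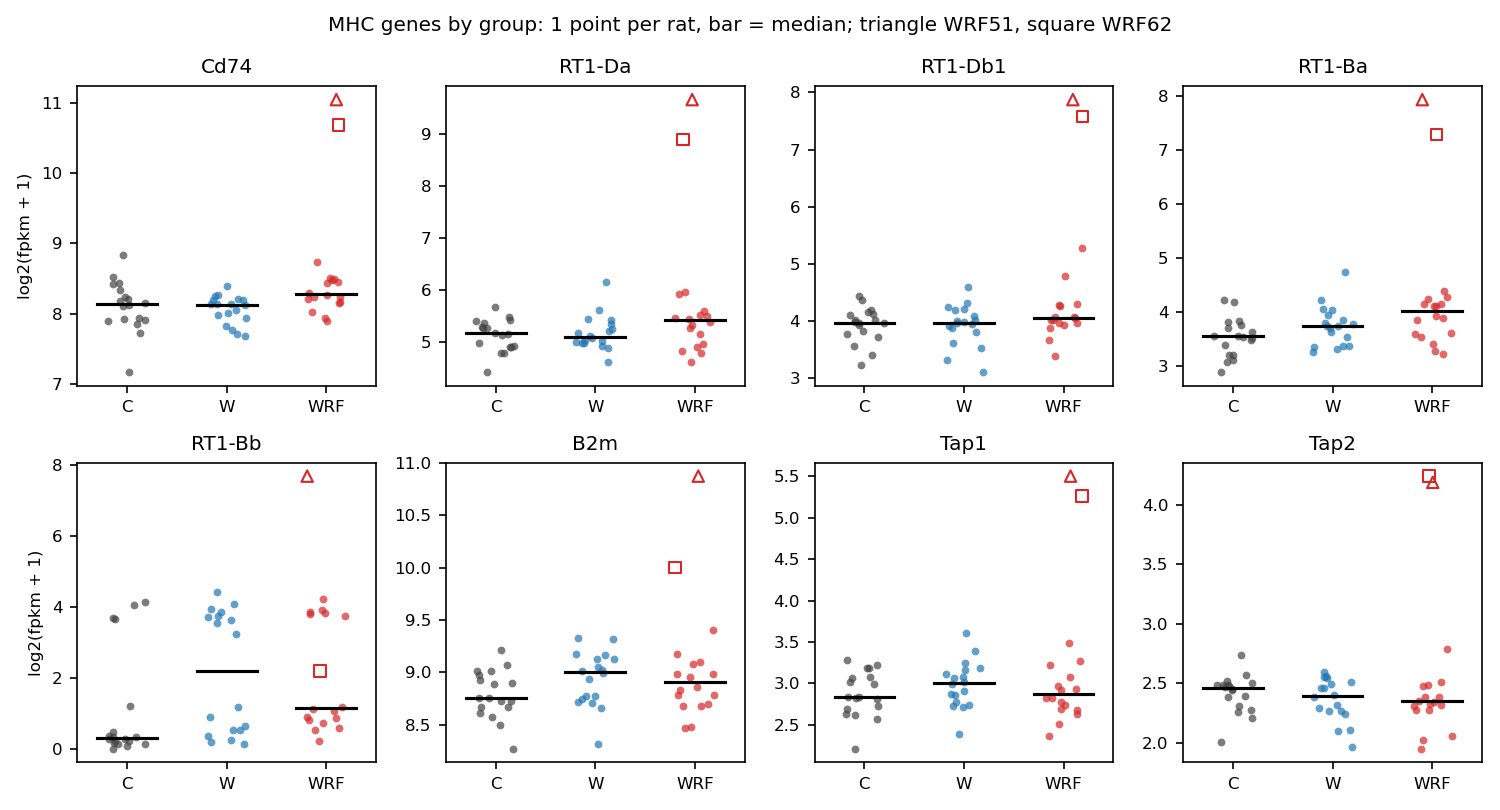
Level of each of the 8 genes in each of the 54 rats, as log2(fpkm + 1) on the vertical axis of each panel, by group (18 C, 18 W, and 18 WRF rats), with a bar at the group median. WRF51 (triangle) and WRF62 (square) lie above all other rats in 7 panels, and RT1-Bb falls into a low and a high set of rats in every group.

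Levels were first compared among the groups with times combined, by the Kruskal-Wallis test with Benjamini-Hochberg adjustment over all genes (q of at most 0.05) followed by Mann-Whitney tests. None of the 8 genes was called (0 of 8, at 3 of 8 with an unadjusted p under 0.05), whereas 9.17% of all genes were called and 28.8% had such an unadjusted p. Accordingly 0 of 8 were called higher in WRF than in C rats (8.13% of all genes, with 0.721% called lower), 0 of 8 higher in WRF than in W rats (8.26%, with 0.692% called lower), and 0 of 8 higher or lower in W than in C rats (0.234% and 0.195%). Under median-of-ratios scaling, 51.4% of the genes called between WRF and C rats were higher in WRF rats, against 91.9% as deposited. Under this scaling again 0 of 8 of the MHC genes were called among the groups, beside 4.31% of all genes. Without WRF51 and WRF62 the count was 0 of 8 as well, against 6.42% of all genes. It was 4 of 8 without the series of WRF1 to WRF6, when 31.2% of all genes were called, and 1 of 8 without C33 to C38, when 26.9% were.

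Cd74 came closest to the threshold. It was at 143 to 454 fpkm in C rats with a median of 281, at 205 to 336 in W rats with a median of 279.7, and at 238 to 2108 in WRF rats with a median of 310.4. The groups overlapped, and without WRF51 and WRF62 the WRF rats spanned 238 to 424 fpkm with a median of 304. The Kruskal-Wallis test gave q = 0.055 with all rats and q = 0.114 without these 2. In limma on log2(fpkm + 1), WRF rats were 1.38-fold above C rats (log2 difference 0.46, SE 0.18, adjusted p = 0.0747), and 1.13-fold without the 2 libraries (log2 difference 0.17, SE 0.09, adjusted p = 0.196). Against W rats, WRF rats were 0.51 higher on the log2 scale (SE 0.18, adjusted p = 0.047 by limma) with all rats and 0.23 without the 2 libraries (SE 0.09, adjusted p = 0.089), when 10.1% of all genes were called higher, against 12.4% with all rats. This call was also lost without WRF51 (adjusted p = 0.0819), without WRF62 (0.0806), without W21 (0.0678), without any one of 7 of the 9 series of 6 rats (0.052 to 0.242), with the time or the band of numbers in the model (0.0549 and 0.185), and under median-of-ratios scaling (0.0888). W rats differed from C rats by -0.05 on the log2 scale (SE 0.18, 95% interval -0.41 to 0.31).

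The level of Cd74 also differed between the series of rats, and in C rats between the bands of rat numbers. C rats numbered 33 and above had a median of 335 fpkm, against 259 in C rats numbered up to 30, and 12 of the 18 WRF rats, but 6 of the 18 C and 6 of the 18 W rats, have numbers of 33 and above. Whether these numbers mark a batch is not given in the labels. C33 to C38 made up the higher band of C rats, and C17 to C22 and C25 to C30, both of the lower band, had medians of 287 and 234 fpkm. In W rats the medians were 287 (W1 to W11), 235 (W17 to W22), and 286 fpkm (W33 to W38). With the band of numbers in the model and without WRF51 and WRF62, a setting chosen after seeing the data, the log2 difference between WRF and C rats was 0.11 (SE 0.09, adjusted p = 0.497 by limma). Within the rats numbered up to 30 it was 0.26, and within those of 33 and above, without the 2 libraries, -0.07.

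At the D locus, RT1-Da, which encodes the alpha chain, was at 20.4 to 50.3 fpkm in C rats (median 35.1), 23.4 to 70.4 in W rats (median 33.4), and 23.7 to 61.4 in WRF rats without the 2 libraries (median 40.0). RT1-Db1, which encodes a beta chain of the same locus, was at 8.34 to 20.7 fpkm in C rats (median 14.6), 7.56 to 23.2 in W rats (median 14.6), and 9.46 to 37.7 in those WRF rats (median 15.4). The groups overlapped for both genes, with q = 0.354 and 0.344 in all rats. The log2 difference of WRF and C rats was 0.60 (SE 0.27) for RT1-Da and 0.59 (SE 0.25) for RT1-Db1 in all rats, and 0.16 (SE 0.12) and 0.19 (SE 0.12) without WRF51 and WRF62, so that most of the size rested on these 2 libraries.

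RT1-Ba, the alpha chain of the B locus, was at 6.40 to 17.7 fpkm in C rats (median 10.8), at 8.65 to 25.9 in W rats (median 12.4), and at 8.33 to 20.1 in WRF rats without the 2 libraries (median 14.1). The ranges overlapped, but the medians lay in this order, and the Kruskal-Wallis test gave q = 0.0944. RT1-Ba was the only one of the 8 genes past an adjusted p of 0.05 in limma between WRF and C rats, as were 11.3% of all genes toward higher values. WRF rats were 1.67-fold above C rats (log2 difference 0.74, SE 0.26, adjusted p = 0.0469). The call was lost without WRF51 (adjusted p = 0.0779), without WRF62 (0.0827), and without both, when the fold was 1.25 (log2 difference 0.32, SE 0.12, adjusted p = 0.0801) and 9.32% of all genes were called higher by limma. It was also lost without any one of 8 of the 9 series of 6 rats (adjusted p from 0.0556 to 0.251) and held without WRF1 to WRF6 (0.00614). Its size changed less in these fits, with log2 differences of 0.53 to 0.77 in the 8 losses. With the band of numbers in the model, and all rats, the log2 difference was 0.65 (adjusted p = 0.144), and with the time in the model 0.74 (adjusted p = 0.0517).

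Of the class I genes, B2m was at 308 to 594 fpkm in C rats (median 430.5), 318 to 642 in W rats (median 512.5), and 352 to 676 in WRF rats without the 2 libraries (median 458). Its log2 difference of WRF and C rats was 0.25 (SE 0.13) in all rats and 0.08 (SE 0.09, 95% interval -0.09 to 0.25) without them. Its groups overlapped throughout, and the median of W rats was the highest (q = 0.32).

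The transporter genes had nearly equal levels in the groups once WRF51 and WRF62 were left out. Tap1 was at 3.63 to 8.76 fpkm in C rats (median 6.11), 4.23 to 11.2 in W rats (median 7.00), and 4.17 to 10.2 in those WRF rats (median 6.07), and its log2 difference of WRF and C rats went from 0.27 (SE 0.18) in all rats to -0.01 (SE 0.10, 95% interval -0.20 to 0.19). Tap2 was at 3.01 to 5.66 fpkm in C rats (median 4.50), 2.90 to 5.04 in W rats (median 4.26), and 2.86 to 5.91 in those WRF rats (median 4.05), with a log2 difference from 0.13 (SE 0.13) to -0.08 (SE 0.06, 95% interval -0.21 to 0.04). Neither gene was called by the Kruskal-Wallis test (q = 0.714 for Tap1 and 0.841 for Tap2 in all rats). Without the 2 libraries, q was 0.551 for Tap1 and 0.556 for Tap2.

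As a list, all 8 genes had a positive log2 difference of WRF and C rats, as did 64.1% of all genes, and the median of the 8 was 0.53, against 0.08 over all genes. Without WRF51 and WRF62, 6 of 8 were positive, as were 56.5% of all genes, and the medians were 0.17 and 0.03. Between W and C rats, which share the C rats with the comparison above, the median of the 8 was 0.08, against -0.01 over all genes.

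**Figure D2:**
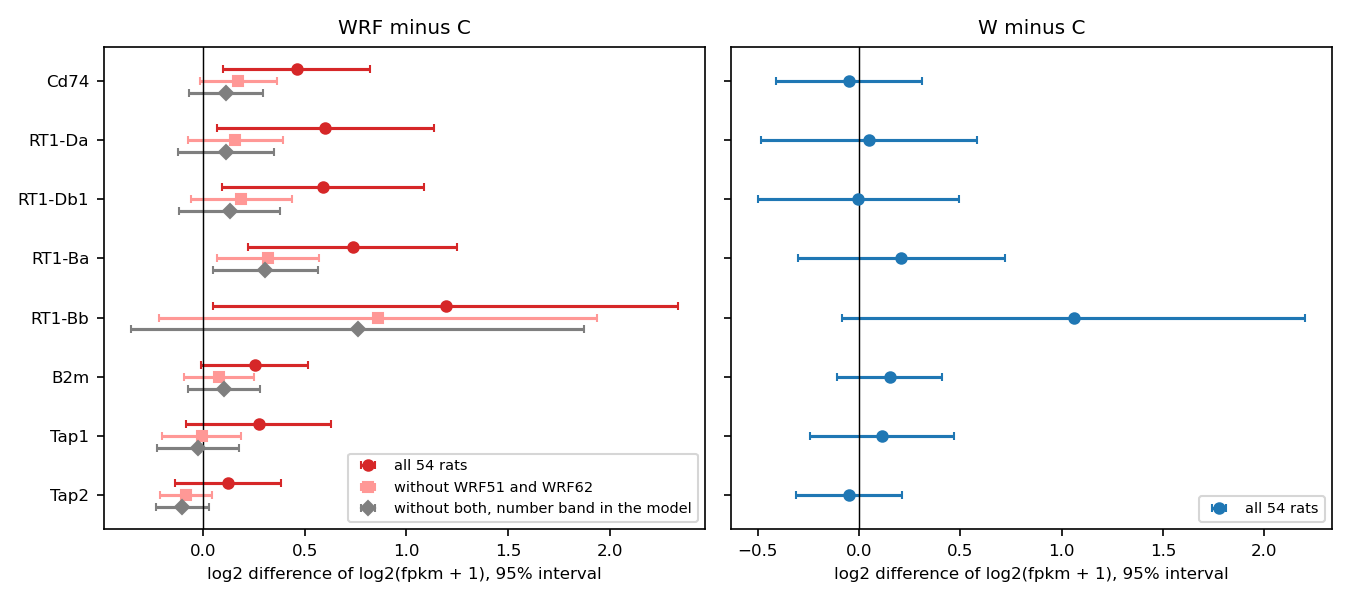
Log2 difference of each gene (horizontal axis, on log2(fpkm + 1), with 95% intervals from limma) for WRF minus C on the left and W minus C on the right. On the left, values are shown for all 54 rats, without WRF51 and WRF62, and without them with the band of rat numbers in the model. The difference of RT1-Da falls from 0.60 to 0.16 and 0.11, and that of Tap2 from 0.13 to -0.08 and -0.10.

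RT1-Bb, which encodes the beta chain that pairs with RT1-Ba, behaved unlike the other 7 genes, with a low and a high set of rats. It ranged from 3.7e-07 to 16.6 fpkm in C rats (median 0.241), from 0.104 to 20.3 in W rats (median 4.83), and from 0.155 to 17.8 in WRF rats without the 2 libraries (median 1.13). Its coefficient of variation over the 52 other rats was 125%, higher than in 98.8% of genes, against 30.1% for RT1-Ba, and within C rats alone it was 180%, higher than in 99.7% of genes. The ratio of RT1-Bb to RT1-Ba was at most 0.139 in 34 rats and at least 0.782 in 20 rats, with none between. The next widest gap between neighbouring rats was 0.0673. The cut between the 2 sets was placed after the values were seen, and no test was run on it.

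In the 20 rats of the upper set, RT1-Bb was at 8.39 to 206 fpkm with a median of 13.4, and it approached the level of its partner. In the 34 rats of the lower set it was at most 3.59 fpkm, reached in WRF62, with a median of 0.338, and at most 1.33 in the other rats. The upper set held 4 C rats (C18, C19, C30, and C38), 9 W rats (W7, W9, W17, W21, W22, W34, W35, W36, and W38), and 7 WRF rats (WRF4, WRF42, WRF45, WRF46, WRF51, WRF54, and WRF55). It had rats of all 9 series of 6 rats, with 1 to 4 in each, and rats of all 6 times.

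The group values of RT1-Bb are given beside this split, since the shares of the upper set differed among the groups. The Kruskal-Wallis test gave q = 0.0791 in all rats and 0.107 without WRF51 and WRF62. The log2 difference was 1.19 (SE 0.57, adjusted p = 0.142 by limma) for WRF and C rats and 1.06 (SE 0.57, adjusted p = 1) for W and C rats, while the medians of 0.241, 4.83, and 1.21 fpkm in C, W, and WRF rats lay in or between the 2 sets. Without WRF51 and WRF62, the difference of WRF and C rats was 0.86 (SE 0.54, adjusted p = 0.264 by limma). The other chains did not split in this way: the ratio of RT1-Ba to RT1-Da was 0.261 to 0.452 over the 52 rats, and that of RT1-Db1 to RT1-Da 0.265 to 0.631.

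The same 20 rats had more of several class I heavy chains. RT1-CE16 was above 16 fpkm in all 20 rats of the upper set and in 3 of the 34 rats of the lower set (W11, W18, and W20), and it was at most 9.47 in the other 31. RT1-A3 was at 0.986 to 2.53 fpkm in the upper set without WRF51 and at most 0.787 in the lower set without WRF62. RT1-A1 was at 19.1 to 45.3 fpkm and at 5.89 to 23.5 in the same rats, whereas the neighbour RT1-A2 overlapped fully, at 35.1 to 85.1 and 31.4 to 109.8. RT1-A3, RT1-A1, RT1-CE16, and RT1-CE7 were also the 4 genes most like RT1-Bb in Spearman correlation over the 52 rats (0.888, 0.791, 0.789, and 0.762, a search made after the split was seen). RT1 genes are a family of near-identical copies, the reads were given 1 placement each on the reference genome, and the rats were outbred. How far this sets the levels of single RT1 genes was not tested.

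**Figure D3:**
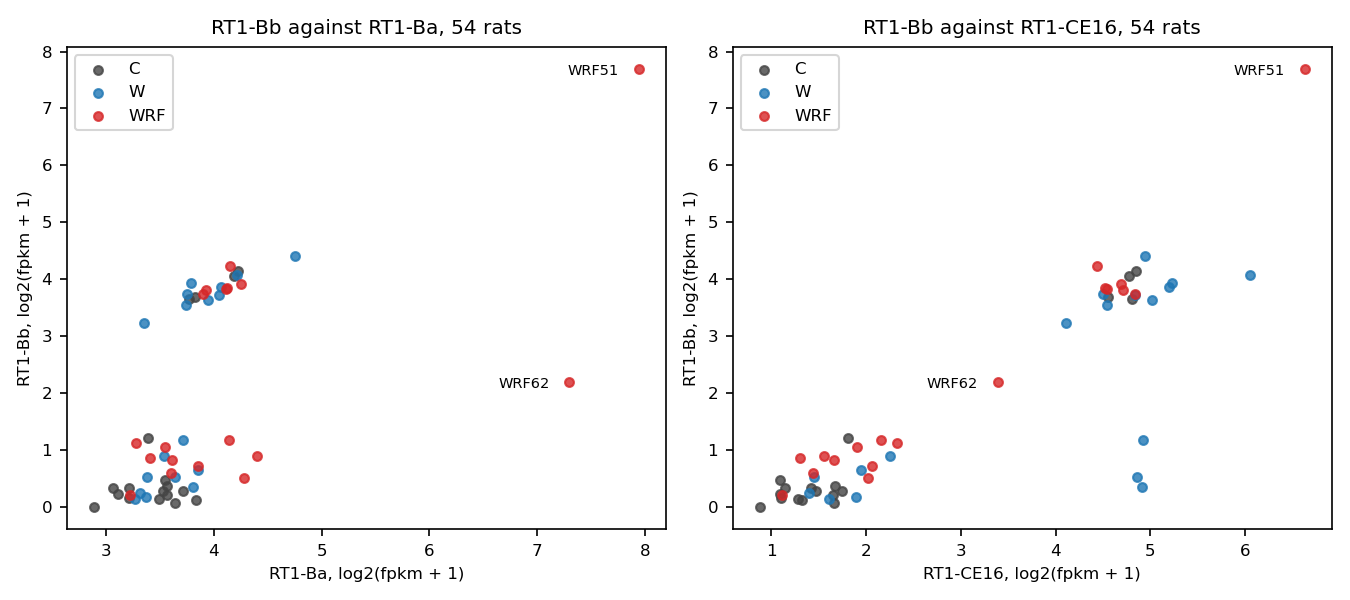
RT1-Bb in each of the 54 rats (vertical axis) against RT1-Ba on the left and the class I heavy chain RT1-CE16 on the right (horizontal axes), all as log2(fpkm + 1), with 1 point per rat coloured by group. The 20 rats with a ratio of RT1-Bb to RT1-Ba of at least 0.782 lie apart from the other 34, and 3 W rats have high RT1-CE16 with low RT1-Bb.

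The genes were next followed over the day. No rhythm with a 24 h period was found for any of the 8 genes by harmonic regression (q under 0.05) in C, W, or WRF rats (0 of 8 in each, against 0.848%, 0%, and 0.039% of all genes). None had an unadjusted p under 0.05 either, against 5.91%, 3.05%, and 6.35% of all genes, and the smallest unadjusted p of the 8 was 0.409 in C rats, 0.327 in W rats, and 0.225 in WRF rats. In WRF rats without WRF51 and WRF62, the smallest was 0.12 (Tap1). There 0 of 8 were below 0.05, beside 829 of the 10257 genes. With 3 rats per time, Cd74 was at 238, 347, and 1642 fpkm at ZT5 and at 245, 355, and 2108 at ZT9 in WRF rats. At ZT21 the 3 WRF rats were at 302, 361, and 424 fpkm and the 3 C rats at 243, 279, and 454. The high values at ZT5 and ZT9 were thus those of 1 rat each.

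Since both of these libraries were collected in the light phase, they bore on the comparison of light and dark hours. The difference of WRF and C rats in Cd74 was 0.78 (SE 0.25) on the log2 scale in the light and 0.14 (SE 0.25) in the dark with all rats, and 0.20 (SE 0.14) and 0.14 (SE 0.13) without WRF51 and WRF62. The interaction, tested in limma, was called for 0 of 8 genes and for 0% of all genes, with 0 of 8 at an unadjusted p under 0.05 (adjusted p of 0.928 or more). A joint test of both harmonic terms for WRF against C rats, added after seeing the data, called 0 of 8 as well, and 0 of the 10257 genes. The interaction of the 8 genes was 0.27 to 0.68 with all rats and -0.41 to 0.06 without the 2 libraries. For 12 WRF rats, WRF51 and WRF62 among them, other labels give another time than the sample titles used here. With those times the interaction was -0.38 to 0.68 with all rats, again with 0 of 8 and 0% of all genes called.

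**Figure D4:**
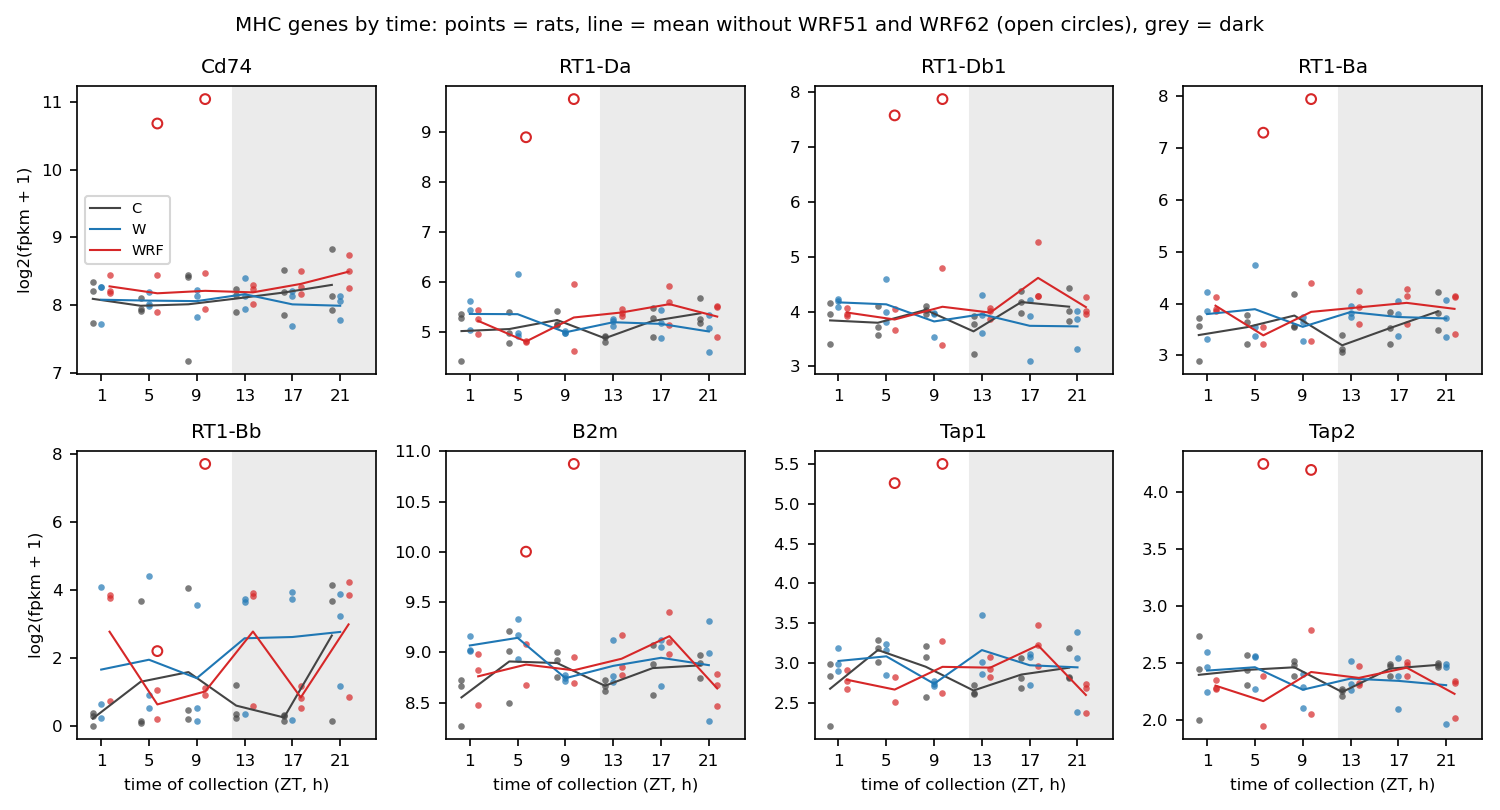
Level of each gene as log2(fpkm + 1) on the vertical axis against the time of collection (ZT, h), with 1 point per rat, lines through the means of C, W, and WRF rats without WRF51 and WRF62, those 2 rats as open circles, and the dark hours in grey. The open circles at ZT5 and ZT9 lie above all other rats for 7 genes, and the means of the 3 groups cross repeatedly over the day.

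The genes were then compared with each other from rat to rat on log2(fpkm + 1). In all 54 rats, Pearson's r over the 21 pairs without RT1-Bb was 0.719 to 0.973, and without WRF51 and WRF62 it was 0.119 to 0.862. RT1-Bb fell into separate sets, so its pairs are not described by a pooled r. Of the 28 pairs computed, all 21 without RT1-Bb passed an adjusted permutation p of 0.05 in Pearson's r in all rats, and 19 passed in the 52 rats, also in Spearman's rho (100000 permutations, Benjamini-Hochberg adjustment over the 28 pairs). The 2 that did not were Cd74 with B2m (r = 0.147, rho = 0.189, adjusted permutation p = 0.36 and 0.219) and Cd74 with Tap2 (r = 0.119, rho = 0.012, adjusted permutation p = 0.467 and 0.967).

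The closest pair in the 52 rats was RT1-Da with RT1-Ba, the alpha chains of the 2 loci. Its r was 0.862 and its rho 0.823 (adjusted permutation p = 5.6e-05 for each), with r of 0.822 without the 2 rats farthest from the median of RT1-Da, 0.884, 0.849, and 0.886 within C, W, and WRF rats, and 0.818 and 0.904 within the lower and the higher band of numbers. B2m with Tap1, both of class I, had r = 0.745 and rho = 0.723 (adjusted permutation p = 5.6e-05 for each), with r of 0.681 without the 2 farthest rats, 0.688, 0.853, and 0.667 within C, W, and WRF rats, and 0.773 and 0.780 within the bands. Cd74 with its client RT1-Da was looser, at r = 0.458 and rho = 0.493 (adjusted permutation p = 0.00115 and 0.000672), with r of 0.482 without the 2 farthest rats, 0.470, 0.271, and 0.621 within the groups, and 0.181 and 0.625 within the bands.

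The genes most like Cd74, B2m, and Tap1 in their pattern were searched for, and how these searches differ was not tested. The 5 genes most like Cd74 in Spearman correlation over the 52 rats, among 9997 others, were Cox6a2 (0.885), Alkbh7 (0.876), Timm10 (0.856), Cox6b1 (0.851), and Tnni3 (0.849). Cox6a2 and Cox6b1 are subunits of cytochrome c oxidase, Timm10 helps import proteins into mitochondria, and Tnni3 is cardiac troponin I. Within groups, these 5 correlations were 0.926 to 0.946, 0.639 to 0.769, and 0.691 to 0.921 for C, W, and WRF rats. Those most like B2m were the class I heavy chains RT1-A2 (0.845), RT1-CE1 (0.844), RT1-CE10 (0.804), and RT1-CE5 (0.8) and the immunoproteasome subunit Psmb9 (0.776). Those most like Tap1 were the heavy chain RT1-Cl (0.830), Psmb9 (0.813), which is its chromosomal neighbour, and the heavy chains RT1-CE15 (0.811), RT1-CE14 (0.784), and RT1-CE2 (0.768). These are descriptions over rats that share their libraries, in which all fpkm values of a rat depend on each other.

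The same was seen with cell type markers. Over the 52 rats, the Spearman correlation of Cd74 with the summed cardiomyocyte markers was 0.793 (0.911, 0.695, and 0.600 within C, W, and WRF rats), and with the macrophage and leukocyte markers it was 0.0966 and 0.0642. RT1-Da had 0.120 with the cardiomyocyte, 0.502 with the macrophage, and 0.446 with the leukocyte markers, and B2m had -0.139, 0.412, and 0.468. Within C, W, and WRF rats, the macrophage values were 0.373, 0.569, and 0.521 for RT1-Da and 0.748, 0.294, and 0.179 for B2m. With the sum of the 2 dendritic cell markers, Cd74 had -0.475, RT1-Da -0.187, and B2m 0.123. Tap2 was closest to the endothelial markers, with 0.642 (0.771, 0.54, and 0.532 within C, W, and WRF rats), although within WRF rats it was closer to the fibroblast markers (0.712).

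**Figure D5:**
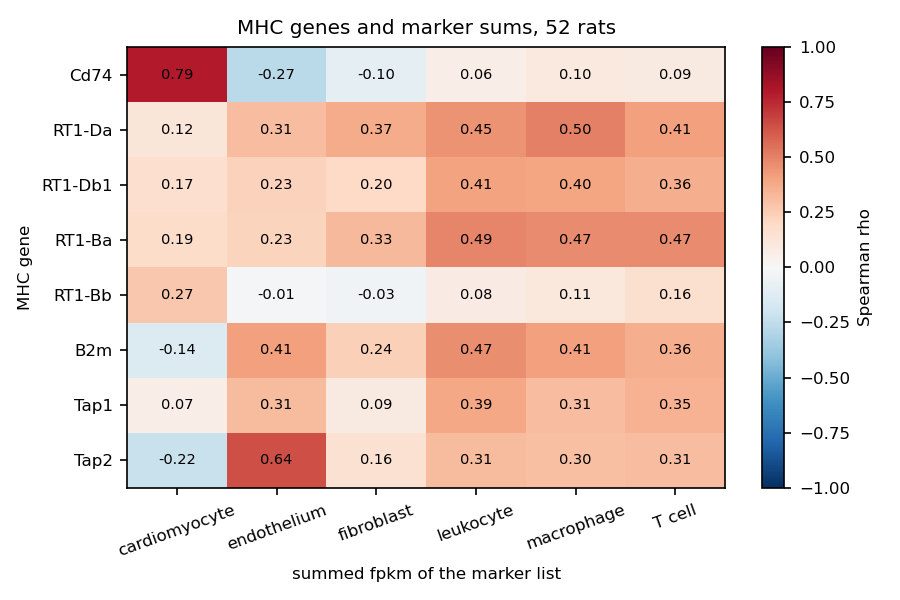
Spearman correlation over 52 rats (WRF51 and WRF62 left out) of each of the 8 genes (rows) with the summed fpkm of 6 marker lists (columns), in colour from -1 to 1 with the value printed. Cd74 has 0.79 with cardiomyocyte markers and 0.06 with leukocyte markers, and RT1-Da has 0.12 and 0.45.

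The other genes of the pathway gave few calls. Of 89 genes in the table on 9 pathway lists, with the 8 genes left out, 5 were called among the groups (5.62%, against 9.17% of all genes). In WRF rats against C rats, 3 were called higher and 1 lower, and the median log2 difference of the 89 was 0.15, against 0.08 over all genes, and -0.02 without WRF51 and WRF62, against 0.03.

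Genes that process material for class II loading gave 2 of these calls among 6 in the table. Ifi30, a thiol reductase of lysosomes, was called higher in WRF than in C and W rats. Its medians were 20.8, 19.7, and 24.97 fpkm in C, W, and WRF rats (q = 0.0176, and 0.0402 without WRF51 and WRF62). Ctsh, the protease cathepsin H, was called higher as well, with medians of 70.9, 75.2, and 87.4 fpkm (q = 0.0436), but not without the 2 libraries (q = 0.0911). Without the series of WRF41 to WRF46 and WRF62, or without that of WRF50 to WRF55, neither was called, nor was any other gene. Ctss, the cathepsin that degrades the invariant chain, had medians of 14.2, 15.2, and 19.8 fpkm (q = 0.0698, and 0.143 without the 2 libraries). RT1-DMa, a chain of the molecule that exchanges peptides on class II, had 2.84, 2.51, and 3.54 (q = 0.0982, and 0.186 without them).

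Of 24 class I heavy chains in the table, 1 was called. RT1-CE16 had medians of 1.95, 24.96, and 3.73 fpkm in C, W, and WRF rats (q = 0.0293) and was called higher in W than in C rats and in WRF than in C rats, and as described above its high values were those of the rats with high RT1-Bb and of 3 others. Without the 2 libraries its q was 0.0353 and it was no longer called between WRF and C rats. The median log2 difference of WRF and C rats over the 24 heavy chains was 0.32, and 0.09 without WRF51 and WRF62. RT1-CE7 had medians of 0.000659, 10.7, and 0.000980 fpkm (q = 0.0503, and 0.0545 without the 2 libraries).

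None was called among the 7 genes of class I peptide loading, the 5 of the immunoproteasome, the 11 transcription factors of MHC genes, the 4 MHC class I-like genes, and the 3 costimulatory genes in the table. Psme2, a subunit of the proteasome activator, had medians of 32.7, 34.4, and 38.9 fpkm in C, W, and WRF rats (q = 0.0902, and 0.175 without WRF51 and WRF62). The loading chaperone Calr had 144, 151, and 174 (q = 0.102, and 0.201 without them). Rfxank, a subunit of the factor that binds the X box, had 7.15, 7.00, and 8.09 (q = 0.112, and 0.154 without them). The class II transactivator gene Ciita and the class I transactivator gene Nlrc5 were not among the 10257 genes.

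The interferon lists gave 1 call each. Ifngr2, a chain of the interferon gamma receptor, was 1 of 11 genes of interferon gamma signalling and was called higher in WRF than in W rats, with medians of 7.33, 6.63, and 7.88 fpkm in C, W, and WRF rats (q = 0.0268, and 0.0556 without WRF51 and WRF62). Ifit2, 1 of 18 genes of the type I interferon response, was called lower in WRF than in C and W rats. Its medians were 7.44, 7.76, and 5.90 fpkm (q = 0.0299, and 0.0331 without the 2 libraries). Without them, Rsad2, an antiviral enzyme of the same list, was also called (q = 0.0474), so that 2 of the 18 were called lower in WRF than in C rats. Of all 10257 genes, 53 were called lower in that setting. The median log2 difference of WRF and C rats over the 18 genes was -0.04 with all rats and -0.16 without the 2 libraries.

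Of the 10 macrophage, 6 T cell, and 5 leukocyte markers, 0 were called among the groups, beside 9.17% of all genes. Their median log2 differences of WRF and C rats were 0.53, 0.66, and 0.54 with all rats and 0.30, 0.27, and 0.04 without WRF51 and WRF62, beside 0.53 and 0.17 for the 8 MHC genes. In the same 2 settings, the 2 dendritic cell markers had -0.193 and -0.275, and the 1 B cell marker had 0.773 and 0.268. The 4 atrial markers had a median log2 difference of WRF and C rats of 1.51 without WRF51 and WRF62, and their sum had a Spearman correlation of -0.299 with Cd74 and 0.361 with RT1-Da over the 52 rats. The part of these cells, and of the share of atrium, in the values of the MHC genes was not tested.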

How the data were processed

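RNA was sequenced from the hearts of 54 rats. The deposited values are FPKM, which the authors made from directional polyA libraries with TopHat2 (build rn6, 1 placement per read) and Cufflinks, whose versions are not given in the sources used here. Genes above 1 fpkm in at least 18 rats were kept, which all 10257 genes of the table meet. Without repeated entries of a symbol that hold the same values as an earlier entry, 9998 remain. Each of the 54 columns is 1 rat, nothing was rescaled, and depth, which FPKM does not hold, was not used.

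Group and time came from the sample titles. For 12 WRF rats the other labels give another time, which was used as an alternative. Rats were also taken in series of 6 and in bands of their numbers (up to 30, 33 and above).

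Groups were compared with the Kruskal-Wallis test (Benjamini-Hochberg over all genes, q of at most 0.05) and then pairwise by Mann-Whitney (2-sided, p under 0.05), as in the study's methods, with scipy 1.17.1. For sizes, standard errors, and the light-dark interaction, log2(fpkm + 1), a scale that understates changes of low genes, was fitted in R 4.3.3 with limma 3.58.1 (variance trend). Harmonic regression on fpkm with a period of 24 h tested for rhythms. Python 3.11.15, numpy 2.4.6, pandas 2.3.3, and matplotlib 3.10.9 were used, and the scripts were tested on simulated data. Alternatives covered libraries, series, scaling, pseudocount (0.1), a mean of at least 5 fpkm, rat numbers, and time labels.

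The members, the lists, and the tests were chosen with earlier results of these data known. Named are the 8 genes, up to 4 genes per list with the smallest Kruskal-Wallis p, the 5 genes most like Cd74, B2m, and Tap1, and library markers. The genes compared with RT1-Bb were named after their values were seen. All 11 marker lists gave 0 calls with all rats, and 1 endothelial gene was called lower in WRF than in C rats without WRF51 and WRF62.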

Additional observations from a re-analysis of the deposited data

How the results depend on the processing

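All counts concern the 8 MHC genes. Of the counts that were 0 with all rats, some were above 0 under other settings. Leaving out each series in turn gave 0 to 4 genes called among the groups, 0 to 4 higher in WRF than in C rats, 0 to 3 higher in WRF than in W rats, and 0 to 1 differing between W and C rats. The 4 genes (Cd74, RT1-Da, RT1-Ba, and RT1-Bb) were called without WRF1 to WRF6, when 31.2% of all genes were called, and Cd74 was called without C33 to C38 (26.9% of all genes). Without WRF1 to WRF6, 2556 of the 10257 genes were called higher in WRF than in C rats and 2613 higher in WRF than in W rats. In that setting 41 were called higher and 90 lower in W than in C rats. Without C33 to C38, 1494 genes were called higher in WRF than in C rats and 1449 higher in WRF than in W rats. No gene of the table was called by the Kruskal-Wallis test without the series of WRF41 to WRF46 and WRF62 or without that of WRF50 to WRF55. With a mean of at least 5 fpkm, 1 gene (Cd74) was called among the groups, beside 17.1% of the 6294 genes left. Cd74 was there called higher in WRF than in C rats, beside 965 of the 6294 genes, and higher than in W rats, beside 982. By limma, 1 gene (RT1-Ba) was called higher in WRF than in C rats, beside 11.3% of all genes, and 1 (Cd74) higher in WRF than in W rats, beside 12.4% of all genes. Within the rats numbered 33 and above, 3 genes had a log2 difference above 0 between W and C rats, against 5 in all rats. Of all genes, 52.7% and 46% had such a difference. The tests within bands of rat numbers, the fit with the band and without WRF51 and WRF62, the omission of W21, and the joint harmonic test were chosen after seeing the data. The causes of these changes were not tested.

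Of the log2 differences of single genes under alternatives, 277 kept their direction and side of the threshold or moved by less than their spread. Of the others, 15 were losses of the call of RT1-Ba, 5 were calls gained, all without a series of rats, and 7 were changes of sign of differences that were not called, with Tap1 at -0.01 and Tap2 at -0.08 without WRF51 and WRF62.

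C and W rats share 12 numbers, which were not taken to pair the animals: correlations of the 12 pairs were -0.185 to 0.647, and 1 pair was closest to its own number. With the number as a replicate block, 0 of the 8 genes were called between W and C rats, as without the block. A block raised the genes of the whole table at an unadjusted p under 0.05 from 887 to 1707, with 0 called either way.

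Precision was limited by 18 rats per group. RT1 genes can share reads with near-identical copies, and the effect on their values was not tested.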
